A study of Sus scrofa with 63 samples.

Results

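The genes described here are the stem cell and Wnt target genes of the intestinal crypt: LGR5, OLFM4, ASCL2, AXIN2, SOX9, SMOC2, RNF43, ZNRF3, EPHB2 and MSI1. They were measured in jejunum RNA of 63 male pig fetuses, with 1 fetus per array on a 1-colour Agilent porcine oligonucleotide array. A probe was taken when the gene name in the scanner files equalled 1 of the 10 names, in any letter case. This found 9 probes of 6 of the 10 genes, and all 9 were among the 40515 of 60305 probes bright enough to be tested. Counted by gene, these are 6 of 10923 genes that the array names by symbol, of which 8844 had a tested probe. LGR5, SMOC2 and EPHB2 had 1 probe each, and ASCL2, SOX9 and ZNRF3 had 2 each. A further 3 probes lie outside that rule and are given beside it: 1 of AXIN2, which the file describes as Axin-2 in words, 1 of OLFM4, which carries an EST accession and was named through a supplementary table of the study, and 1 more of SOX9, which carries a RefSeq accession. That table lists probes chosen on these same fetuses. The OLFM4 values, calls and p-values are therefore not independent evidence of a change or of its direction. RNF43 and MSI1 were not analysed here.

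The fetuses were purebred Large White (LW) or Meishan (MS), or reciprocal crosses, LWMS having an LW sire and an MS sow and MSLW an MS sire and an LW sow. At day 90 of gestation there were 9 LW, 6 MS, 9 LWMS and 8 MSLW fetuses, and at day 110 there were 9 LW, 7 MS, 9 LWMS and 6 MSLW fetuses. No fetus was treated, each fetus was sampled at 1 age only, and fetuses of a litter share a sow that the labels do not give, so litter mates entered as independent fetuses and a difference between litters would make the p-values too small. The comparisons address how the expression of these genes changed with gestational age and whether it differed with the breed of the fetus or of its parents.

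In the adult gut, Wnt ligands at the crypt base bind Frizzled and LRP receptors on epithelial cells and stabilise beta-catenin, which keeps stem cells dividing. R-spondins bound to LGR5 or its relatives prolong this signal by removing the ubiquitin ligases ZNRF3 and RNF43, which otherwise take Frizzled receptors off the cell surface. AXIN2, a scaffold of the complex that degrades beta-catenin, is itself switched on by the pathway and feeds back on it, and ASCL2 and SOX9 are transcription factors of crypt stem and progenitor cells. EPHB2 is a receptor tyrosine kinase that positions cells along the crypt axis, SMOC2 is a secreted matricellular protein, OLFM4 is a secreted glycoprotein of crypt base cells, and MSI1 is an RNA-binding protein. All samples were whole jejunum, in which fewer cells of a type and less RNA per cell cannot be told apart.

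The probes are 60 bases long, and the first 30 bases, as the scanner files give them, are printed for those on which the results turn. LGR5 and SMOC2 are shown because they differed by the breed of a parent, AXIN2 and OLFM4 because they differed between ages, and SOX9 and ASCL2 because their probes of different sequence can be set against each other.
LGR5 A_72_P201052: ggatttcagggcaaagactgaatcagaaga
SMOC2 O10604: tgcagtccttgtccttgtcctggtccactc
AXIN2 A_72_P163106: cgtctgtatatattgtgcggcgaaagagta
OLFM4, accession-named: gcaaaagggtcatctgcttagtagtaatat
SOX9 A_72_P146931: acattccaagacagaaacattagctatcca
SOX9 O11452: cagctcttcttgcaaccagagtatttttgt
ASCL2 A_72_P441878: gatcttgggatgacacagattatctatttt
ASCL2 O1031: gggacactggcaatatgaagacttattttt
The third SOX9 probe has the same sequence over all its bases as A_72_P146931, so it repeats that measurement and adds no further part of the transcript. No genome build is named in the files, and the probes were not placed on a genome, an exon or a strand here.

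Over all 63 arrays, the 2 ASCL2 probes followed each other with a Pearson correlation of 0.97 and the 2 SOX9 probes of different sequence with 0.87. The 2 SOX9 spots of identical sequence correlated at 0.93 over 62 arrays. For ZNRF3 the correlation of its 2 probes was 0.44 over 62 arrays, so these do not give 1 common reading of the gene and are kept apart below. A level here is the log2 signal of a probe relative to the 75th percentile of its array, and levels of different probes were not compared.

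Between 51.2% and 87.6% (median 66.7%) of all probes were well above background on an array. Epithelium was present in the samples, since all 7 general epithelial markers on the list (EPCAM, CDH1, KRT8, KRT18, KRT19, CLDN7 and ELF3) were well above background on all 63 arrays. The array of fetus 632 (MS, day 110) lay farthest from its group, with a root mean square deviation of 1.03 over all probes tested, against a median of 0.48. There the summed level of 7 villus enterocyte markers stood at -3.27 relative to the group mean, that of 4 goblet markers at -1.90 and that of 6 fibroblast markers at 1.37, in log2 units. Fetus 484 (LW, day 90) had a root mean square deviation of 0.98 and fetus 469 (LW, day 110) of 0.80.

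Of the 8 crypt genes with a probe, SOX9 and AXIN2 had a probe called for a change with gestational age averaged over the genotypes. The AXIN2 probe lies outside the rule. OLFM4 was also called, but its probe was found through a list chosen on these same fetuses, so its call is no independent support. Over the 9 probes of the rule, a moderated F test over the 8 groups (limma, adjusted p under 0.01) called 0 of the 9 probes, against 28.8% of all probes tested, while 5 of the 9 had an unadjusted p under 0.05. An ordinary linear model without moderation also called 0. Averaged over the genotypes, the change from day 90 to day 110 was called for 1 of the 9 probes, against 28.5% of all probes (12.8% higher and 15.7% lower at day 110). This was a probe of SOX9. Of the 9 log2 differences, 7 lay below 0 and 2 above, with a median of -0.09 against a median of -0.02 over all probes tested. Within the genotypes, where a call also needed a log2 difference of at least 0.5, 0 of the 9 probes were called, against 4.77% of all probes in LW, 3.17% in MS, 9.88% in LWMS and 5.41% in MSLW. The numbers with an unadjusted p under 0.05 were 2 in LW, 0 in MS, 2 in LWMS and 0 in MSLW, and the ordinary linear model called 0 in each.

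**Figure D1:**
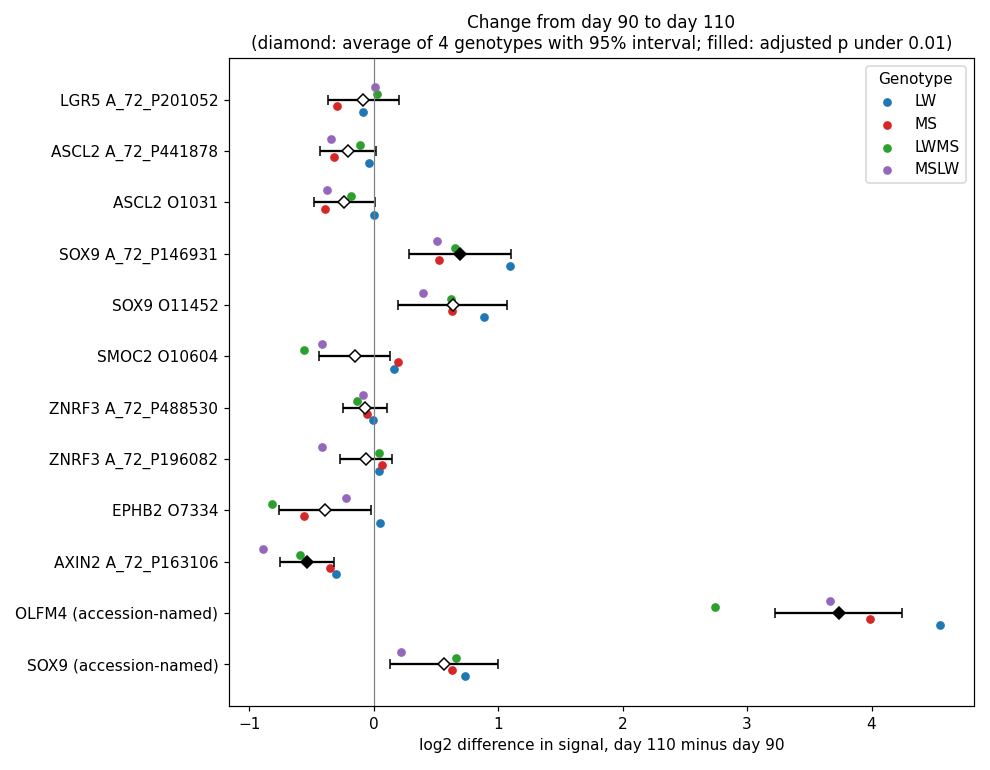
Difference in log2 signal between day 110 and day 90 for each probe. Diamonds give the average of the 4 genotypes with its 95% interval, filled where the adjusted p is under 0.01, and coloured points give each genotype. The OLFM4 probe sits at 3.74 and stands apart from the other probes, AXIN2 lies below 0 in all 4 genotypes, and the 3 SOX9 probes lie above 0 in all 4.

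The receptor LGR5, the defining marker of crypt base columnar cells, did not pass the test for a change with age. In LW its level ran from -1.49 to -0.10 (median -1.19) at day 90 and from -1.82 to -0.34 (median -1.11) at day 110. In MS it ran from -2.28 to -0.97 (median -1.80) and then from -2.69 to -1.33 (median -1.81). The ranges of both ages overlapped in each of these breeds. In LWMS the level was -2.52 to -0.91 (median -1.57) at day 90 and -2.32 to -1.02 (median -1.49) at day 110, and in MSLW it was -3.59 to -0.60 (median -1.27) and -2.11 to -0.66 (median -1.72). The low end of MSLW at day 90 was a single fetus, number 450, whose nearest neighbour in the group was at -1.89. The averaged difference between ages was -0.09 ± 0.14 (SE), 95% interval -0.37 to 0.20, with an adjusted p of 0.677. Without fetus 450 it was -0.16, with an adjusted p of 0.33.

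ASCL2, a transcription factor that LGR5-positive stem cells depend on, gave values below 0 with both probes, and neither passed the test. The averaged difference was -0.20 ± 0.11 (SE) (95% interval -0.43 to 0.02, adjusted p = 0.150) for the brighter probe and -0.24 ± 0.12 (SE) (95% interval -0.48 to 0.01, adjusted p = 0.123) for O1031. Group means of the brighter probe ran from 1.27 ± 0.40 (SD, n = 9) in LW at day 90 down to 0.50 ± 0.18 (SD, n = 6) in MSLW at day 110. In this last group all 6 fetuses lay between 0.25 and 0.67, while in MSLW at day 90 the values spread from -0.95 in fetus 450 to 1.58. In simulated arrays of the same spread, 200 of 37740 probes were given a change between ages. Of these, 53% were recovered at an averaged change of 0.5 and 94% at a change of 1. In the data 28.5% of all probes were called, which makes the adjusted threshold less strict there. The simulated noise was also independent between probes and fetuses. These shares are therefore not the sensitivity of the test above.

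The probe named SMOC2, after the secreted protein found in stem cell signatures of the gut, may be oriented against the SMOC2 transcript, which was not settled here, so its values may not measure that transcript. It differed between ages by -0.15 ± 0.14 (SE) (95% interval -0.44 to 0.13, adjusted p = 0.421). The direction was not shared by the genotypes, with 0.17 in LW and 0.19 in MS against -0.56 in LWMS and -0.41 in MSLW. The test of a difference between genotypes in the age change called 0 of the 9 probes, against 0.0938% of all probes, and SMOC2 had the lowest adjusted p of the 9 at 0.80. None of the 9 had an unadjusted p under 0.05 in that test, and the ordinary linear model called 0.

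**Figure D2:**
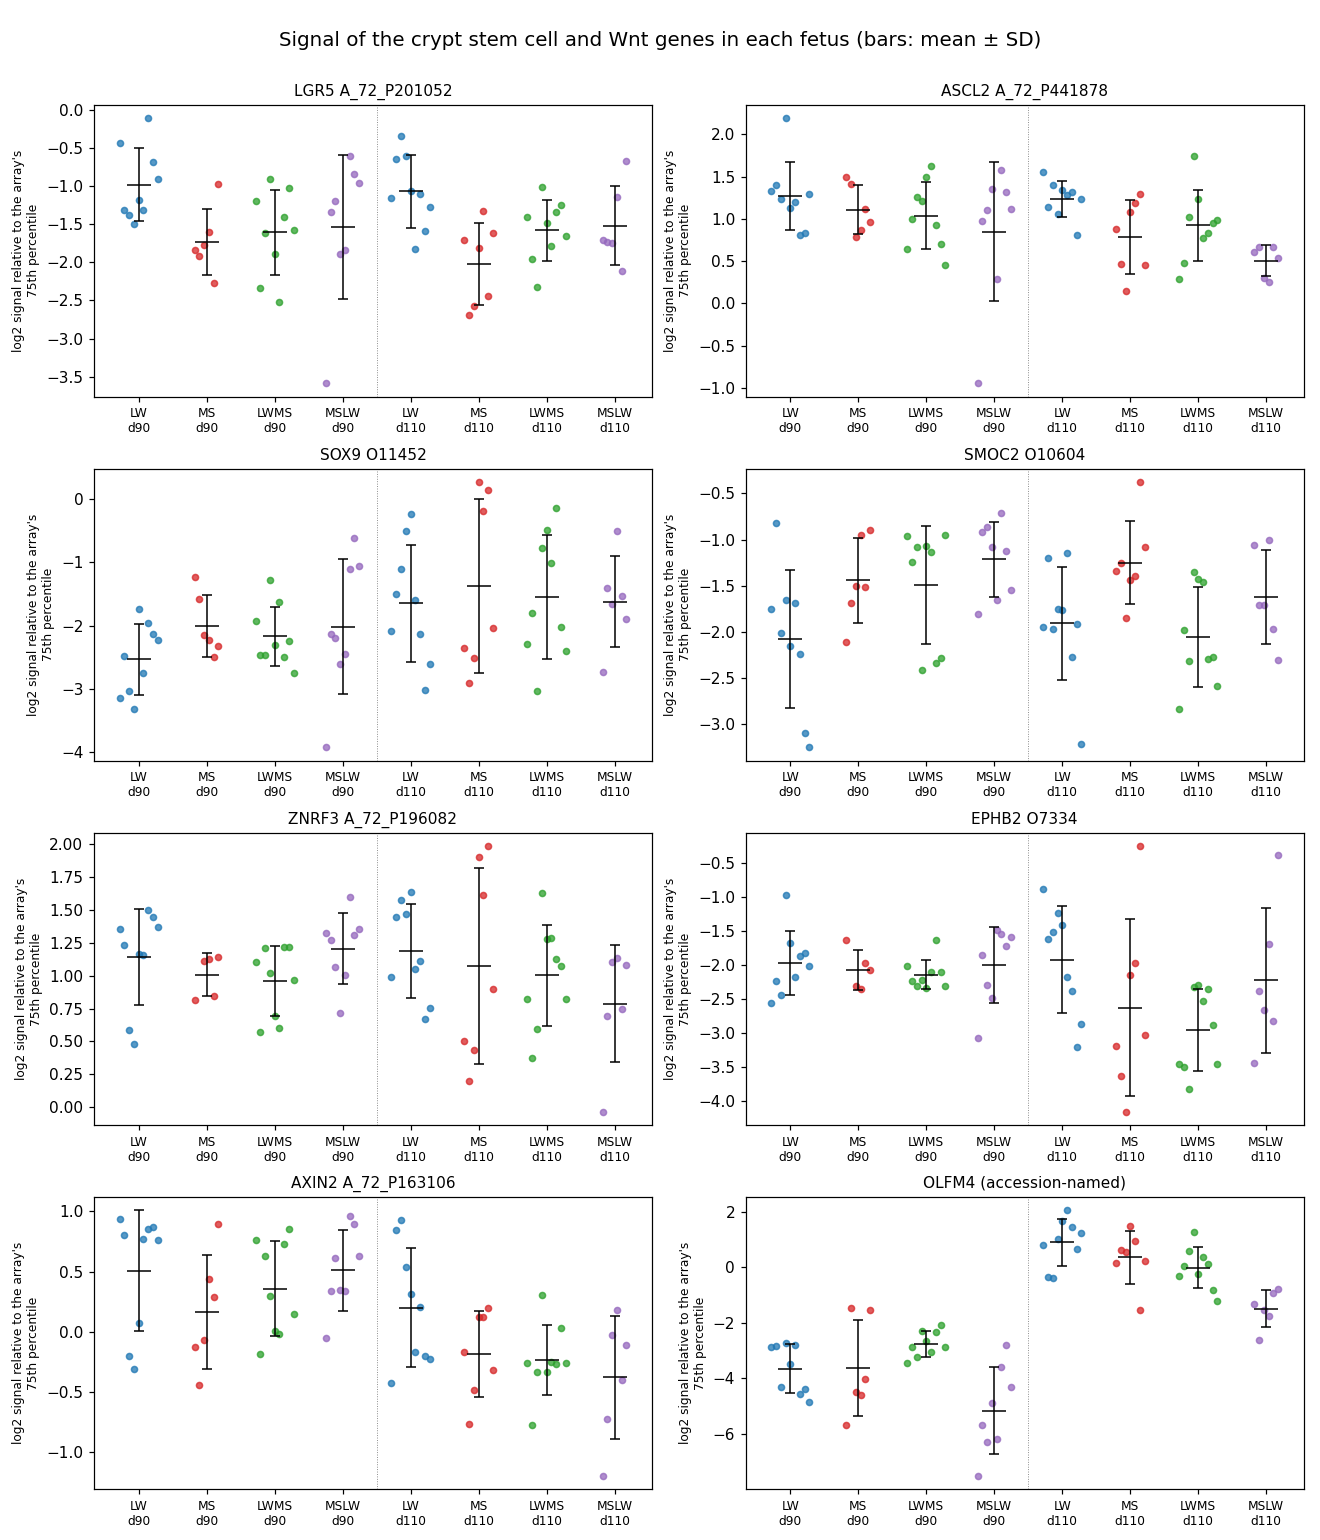
Level in each fetus (points), as log2 signal with the 75th percentile of its array subtracted, for the brightest probe of each gene found by the rule and for the AXIN2 and OLFM4 probes, by genotype and day. Horizontal marks and bars are the group mean and SD. The groups of most genes overlap widely, OLFM4 is higher at day 110, and MSLW fetus 450 at day 90 is the low point of LGR5, ASCL2 and SOX9.

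SOX9, a transcription factor of crypt progenitors that is itself under Wnt control, rose with 1 of its probes. The level of probe A_72_P146931 in LW ran from -5.15 to -2.91 (median -3.82) at day 90 and from -4.02 to -1.56 (median -2.74) at day 110. In MS the values were -4.17 to -2.44 (median -3.48) and -4.38 to -1.52 (median -3.66), so that at day 110 they spanned more than at day 90. In LWMS they were -4.40 to -3.14 (median -3.51) and -4.33 to -1.74 (median -3.17), and in MSLW -4.68 to -2.05 (median -3.79) and -3.66 to -2.01 (median -2.89). The ages overlapped in every genotype. The averaged difference was 0.70 ± 0.21 (SE), 95% interval 0.28 to 1.11, or 1.62-fold, with an adjusted p of 0.00507. When the 75th percentile was taken over probes well above background on all arrays, the difference was 0.68 and the adjusted p 0.0109, which no longer passed. The signal was dim, being well above background on 7 of 9 LW arrays at day 90 and on 6 of 7 MS arrays at day 110.

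The brighter SOX9 probe, O11452, gave a similar size of 0.63 ± 0.22 (SE) (95% interval 0.20 to 1.07) with an adjusted p of 0.0164, which did not pass. The accession-named probe gave 0.56 ± 0.22 (SE) (adjusted p = 0.0334), with 1 value missing in MSLW at day 110. Within the 8 slides, each of which held both ages, the day 110 mean of O11452 was above the day 90 mean on 8 of 8 slides (differences of 0.17 to 1.27), and that of A_72_P146931 on 7 of 8. Within a genotype the highest value of A_72_P146931 was that of LW, 1.096 ± 0.38 (SE), with an adjusted p of 0.0489.

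The spread between fetuses was wide for SOX9 at day 110. In MS, O11452 read 0.26, -0.20 and 0.13 in fetuses 623, 627 and 632 and between -2.91 and -2.05 in the other 4, with no value in between. The same 3 fetuses also held the 3 highest values of EPHB2 (-2.14, -1.98 and -0.25, against -4.16 to -3.03 in the others) and of ZNRF3 probe A_72_P196082. Compared with the group mean, the summed level of the 7 villus enterocyte markers was -3.27 in fetus 632, -0.24 in fetus 623 and 0.14 in fetus 627, and 0.61 to 0.94 in the other 4. That of the 6 fibroblast markers was 1.37, 0.26 and 0.49 in these 3 fetuses and -0.91 to -0.24 in the others, and its part in the SOX9 and EPHB2 values was not tested. Without fetus 632 the averaged age difference of A_72_P146931 was 0.64 (adjusted p = 0.00887) and that of O11452 was 0.57 (adjusted p = 0.0280).

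EPHB2, the receptor that keeps proliferating cells in the crypt, had the lowest averaged difference of the 9 probes, -0.39 ± 0.19 (SE) (95% interval -0.76 to -0.02), and did not pass with an adjusted p of 0.0897. Its level in LWMS averaged -2.14 ± 0.22 (SD, n = 9) in the younger fetuses and -2.96 ± 0.61 (SD, n = 9) in the older ones, a difference of -0.82 ± 0.34 (SE) with an adjusted p of 0.0759. In LW the difference was 0.05. The SD of the EPHB2 level was 0.22 in LWMS at day 90 and 1.30 in MS at day 110. The value of fetus 532 in MS at day 90 was an outlier spot and was left out. With array weights, the averaged difference was -0.55 and passed (adjusted p = 4.35e-04).

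ZNRF3, the ubiquitin ligase that removes Frizzled receptors, gave the narrowest intervals of the set. The averaged differences were -0.06 ± 0.10 (SE) (95% interval -0.27 to 0.14, adjusted p = 0.666) for A_72_P196082 and -0.07 ± 0.09 (SE) (95% interval -0.25 to 0.11, adjusted p = 0.574) for A_72_P488530. The 8 group means of A_72_P196082 spanned 0.42, from 1.20 ± 0.27 (SD, n = 8) in MSLW at day 90 to 0.79 ± 0.45 (SD, n = 6) in MSLW at day 110. Both probes lacked the value of fetus 532 in MS at day 90.

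Beside these, the AXIN2 probe fell. Its level in LW ran from -0.31 to 0.94 (median 0.77) at day 90 and from -0.42 to 0.93 (median 0.20) at day 110, and in MS from -0.44 to 0.90 (median 0.11) and from -0.76 to 0.20 (median -0.17). In LWMS it ran from -0.18 to 0.86 (median 0.30) and from -0.77 to 0.31 (median -0.26), and in MSLW from -0.05 to 0.96 (median 0.48) and from -1.20 to 0.18 (median -0.25). The ages overlapped in every genotype, although the median was lower at day 110 in all 4. The averaged difference was -0.53 ± 0.11 (SE), 95% interval -0.75 to -0.32, or 1.45-fold lower, with an adjusted p of 5.33e-05. It was below 0 on 8 of 8 slides (-1.14 to -0.21), and stood at -0.55 without fetus 632 and at -0.56 without fetus 484. By genotype the difference was -0.30 in LW, -0.35 in MS, -0.60 in LWMS and -0.89 in MSLW, of which that in MSLW passed (adjusted p = 0.00542). Leaving out any of 6 single fetuses ended the MSLW call, for example fetus 476 with -0.73 and an adjusted p of 0.0385, and the differences between genotypes were not called (adjusted p = 0.854).

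The OLFM4 probe rose most. Its level in LW went from -4.85 to -2.73 (median -3.48) at day 90 to -0.41 to 2.04 (median 1.01) at day 110, and in LWMS from -3.47 to -2.09 (median -2.88) to -1.23 to 1.25 (median 0.05). In MSLW it went from -7.51 to -2.81 (median -5.29) to -2.62 to -0.80 (median -1.43), and the ages did not overlap in these 3 genotypes, as was so for 1.23%, 3.04% and 4.34% of all probes in LW, LWMS and MSLW. In MS it went from -5.67 to -1.47 (median -4.26) to -1.54 to 1.47 (median 0.55), where fetus 532 at day 90 (-1.47) lay just above fetus 632 at day 110 (-1.54). The averaged difference was 3.74 ± 0.25 (SE), 95% interval 3.23 to 4.25, or 13.3-fold, with an adjusted p of 1.85e-18. The probe was found through a list chosen on these same fetuses, so this p-value is not that of a probe picked beforehand. By genotype it was 4.55 ± 0.47 (SE) in LW, 3.99 ± 0.55 (SE) in MS, 2.74 ± 0.47 (SE) in LWMS and 3.67 ± 0.54 (SE) in MSLW, and each passed. At day 90 the probe was near the floor of the arrays, being well above background on 8 of 9 LW, 5 of 6 MS, 9 of 9 LWMS and 4 of 8 MSLW arrays. The averaged difference was 2.52 with normexp background correction and 2.88 in the values that the authors deposited.

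The breed of the parents was compared by averaging groups over both ages. The differences within slides given below split the fetuses of a slide by parent without balancing their ages. By the breed of the sow, 1 of the 9 probes was called at an adjusted p under 0.05, against 15.9% of all probes, and by the breed of the sire 1 of the 9, against 6.97%. LGR5 was the probe called for the sow and SMOC2 that called for the sire. Unadjusted p-values under 0.05 were found for 2 of the 9 probes for the sow and 4 for the sire. The breed of the sow, like gestational age, varies only between litters, so litter mates are not separate replicates of either. The p-values for the sow and for the age changes above may therefore be too small. The study applied a mixed model and reported that paternal genotype affected no probe, unlike the sire calls here. For maternal genotype it reported a moderate effect on few probes, in interaction with gestational age. The sow comparison here, averaged over both ages, called 15.9% of all probes. Neither the sow calls nor the sire calls here had the sow in the model.

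LGR5 was lower in fetuses of MS sows, with a mean level over groups of -1.73 against -1.27 in fetuses of LW sows (31 and 32 fetuses). The difference was -0.46 ± 0.14 (SE), 95% interval -0.75 to -0.18, or 1.38-fold lower, with an adjusted p of 0.0196. Within slides it lay below 0 on 6 of 8, from -1.04 to 0.06, and a fit that blocks on the slide gave -0.47. Without fetus 450 it was -0.53 (adjusted p = 0.00171) and without fetus 632 it was -0.44 (adjusted p = 0.0220). Under median centring, which moved the median sow difference of all probes from 0.02 to 0.13, the LGR5 difference was -0.35 and did not pass (adjusted p = 0.0823). Between MS and LW sires LGR5 differed by -0.39 ± 0.14 (SE), with an adjusted p of 0.0855. The reciprocal crosses lay close together, with means of -1.61 in LWMS and -1.53 in MSLW at day 90. At day 110 they were -1.58 and -1.52. Pure LW was highest and pure MS lowest at each age, so the sow difference rests mainly on the pure breeds. It was not set apart from the sire difference. At day 110 the pure breeds stood at -2.02 in MS and -1.07 in LW, a difference of -0.96 ± 0.28 (SE), which missed its threshold (adjusted p = 0.0179).

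The probe named SMOC2, whose orientation to the transcript is unsettled, was higher in fetuses of MS sires, with a mean level over groups of -1.38 against -1.89 in fetuses of LW sires (27 and 36 fetuses). At day 90 its level ran from -3.26 to -0.82 (median -2.01) in LW, from -2.41 to -0.95 (median -1.14) in LWMS, from -2.11 to -0.89 (median -1.51) in MS and from -1.81 to -0.71 (median -1.10) in MSLW. At day 110 the values were -3.22 to -1.15 (median -1.91), -2.84 to -1.35 (median -2.27), -1.85 to -0.38 (median -1.34) and -2.30 to -1.003 (median -1.71) in the same order. The medians of both groups with an MS sire exceeded those of both groups with an LW sire at day 110, while at day 90 the median of LWMS, which has an LW sire, lay above that of MS, and the ranges overlapped. Between MS and LW sires SMOC2 differed by 0.50 ± 0.14 (SE), 95% interval 0.22 to 0.79, or 1.42-fold, with an adjusted p of 0.0188. It was above 0 on 8 of 8 slides, from 0.26 to 0.79. Under quantile normalization it was 0.44 and did not pass (adjusted p = 0.0597), as was so under median centring (0.44, adjusted p = 0.0808).

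OLFM4 was called for both parents, with opposite signs. The level was 0.84 ± 0.25 (SE) higher for MS than for LW sows (adjusted p = 0.0178) and differed by -1.10 ± 0.25 (SE) for MS against LW sires (adjusted p = 0.00267). These sizes average over both ages and rest in part on day 90 values near the floor, where 4 of 8 MSLW arrays were well above background. With normexp correction the sow difference was 0.45 (adjusted p = 0.0426) and the sire difference -0.58 (adjusted p = 0.0131). At day 110, MSLW stood at -1.50 ± 0.66 (SD, n = 6) on average, below LWMS at -0.02 ± 0.74 (SD, n = 9), MS at 0.35 ± 0.94 (SD, n = 7) and LW at 0.89 ± 0.84 (SD, n = 9). At day 90 the means were -5.16 in MSLW and -2.77 in LWMS, while MS at -3.63 and LW at -3.65 lay close together. Both parental differences therefore rest mainly on the reciprocal crosses, with MSLW lowest at each age. They were not set apart from each other. The sire difference was below 0 on 8 of 8 slides and the sow difference above 0 on 6 of 8. The ages were not balanced between the parents on a slide, and OLFM4 changed by 3.74 with age. These slide counts therefore do not separate the breed of a parent from age. AXIN2 gave -0.18 ± 0.11 (SE) for the sow (adjusted p = 0.245) and -0.18 ± 0.11 (SE) for the sire (adjusted p = 0.379), neither of which passed.

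ASCL2 gave -0.30 ± 0.11 (SE) and -0.31 ± 0.12 (SE) for the sire with its 2 probes, and these did not pass (adjusted p = 0.0932 and 0.128). For the sow the values were 0.00 and -0.04. EPHB2 gave -0.42 ± 0.19 (SE) for the sow (adjusted p = 0.116). For SOX9 and ZNRF3 the intervals of all differences by sow and by sire included 0. Comparing MS with LW directly called 0 of the 9 probes at day 90 and 0 at day 110, against 3.59% and 5.01% of all probes, with unadjusted p under 0.05 for 2 and 4 probes, and the ordinary linear model called 0 at both ages. The interaction of sow breed with age called 0 of the 9 (0.388% of all probes) and that of sire breed with age 0 of the 9 (0% of all probes), with no unadjusted p under 0.05 among the 9 in either and none called by the ordinary linear model.

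**Figure D3:**
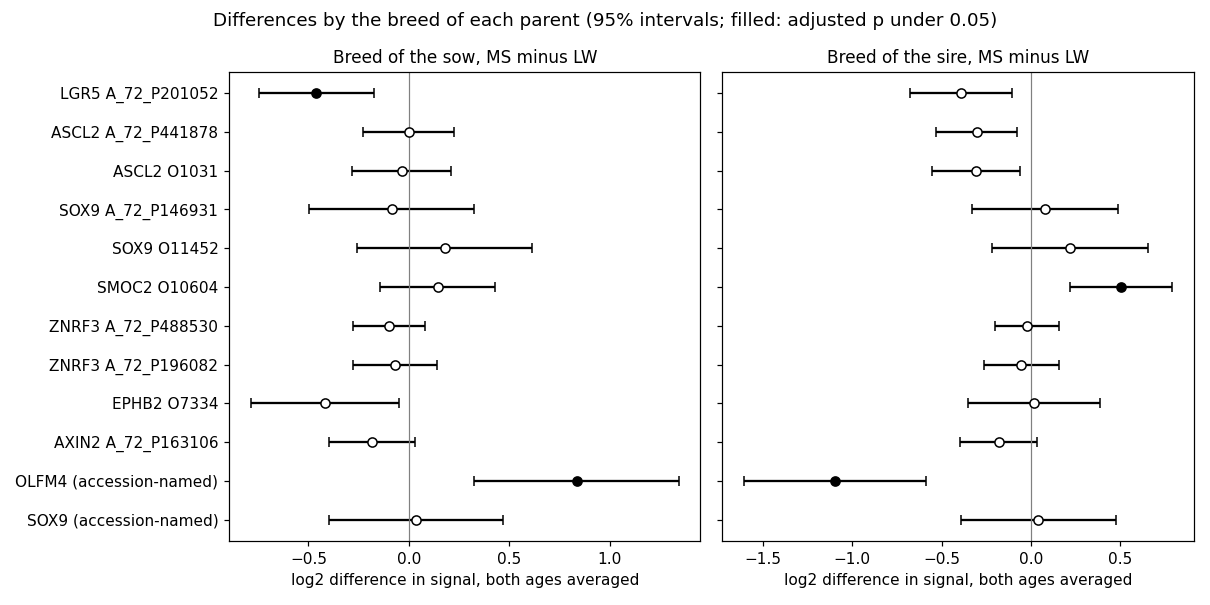
Log2 difference in signal between MS and LW sows (left) and between MS and LW sires (right), both ages averaged, for each probe with its 95% interval. Filled points have an adjusted p under 0.05. LGR5 and OLFM4 are filled for the sow, at -0.46 and 0.84, and SMOC2 and OLFM4 for the sire, at 0.50 and -1.10.

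When the 8 groups were put in order of their mean level, neighbours differed by less than the larger of their SDs in all 7 pairs for each of the 9 probes, for AXIN2 and for the accession-named SOX9 probe. LGR5 ran from LW at day 90 (-0.98) and LW at day 110 through MSLW at day 110, MSLW at day 90, LWMS at day 110, LWMS at day 90 and MS at day 90 to MS at day 110 (-2.02), a span of 1.05. AXIN2 spanned 0.89, from MSLW at day 90 to MSLW at day 110. SOX9 probe O11452 spanned 1.16, with the 4 groups of day 110 above the 4 of day 90. OLFM4 spanned 6.06, its lowest group being MSLW at day 90 with 4 of 8 arrays well above background, and 2 of its 7 gaps between neighbours exceeded the larger SD.

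Apart from the group differences, several of these genes varied together between fetuses. The deviation of each fetus from its group mean was correlated for the 28 pairs of the 8 genes with a probe, over 62 or 63 arrays, with 100000 permutations within groups and Benjamini-Hochberg adjustment over the pairs. Of the 28 Pearson correlations 27 were above 0, and 14 had an adjusted p under 0.05. All values share the scaling of their array, and the share of all gene pairs that would pass was not computed. These counts therefore do not set the crypt genes apart from other genes. Some pairs that passed were matched by many genes. Of the named genes, 15.9% followed SOX9 at least as closely as AXIN2 did, and 18.6% followed EPHB2 so. The 4 closest pairs are set below against the share of named genes that followed each gene at least as closely. The smallest unadjusted p that these permutations can give is 1e-05, which the 4 closest pairs reached.

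In these pairs ZNRF3 stands for probe A_72_P196082 alone, and its other probe, which followed it weakly, was not paired. AXIN2 and ZNRF3, both feedback inhibitors of the pathway, gave Pearson r = 0.76 (permutation adjusted p = 7.00e-05) and Spearman rho = 0.79 (permutation adjusted p = 5.60e-05), with r = 0.73 after leaving out the 2 farthest arrays. Of the named genes, 3.87% followed ZNRF3 at least as closely and 0.871% followed AXIN2 so. LGR5 and AXIN2 gave Pearson r = 0.66 (permutation adjusted p = 7.00e-05) and Spearman rho = 0.69 (permutation adjusted p = 5.60e-05), with r = 0.66 without the 2 farthest arrays. Here 0.136% of genes followed LGR5 at least as closely and 3.98% followed AXIN2 so. SOX9 (O11452) and EPHB2 gave Pearson r = 0.67 (permutation adjusted p = 7.00e-05) and Spearman rho = 0.70 (permutation adjusted p = 5.60e-05), with r = 0.66 without the 2 farthest. Here 3.40% of genes followed SOX9 at least as closely and 1.19% followed EPHB2 so. SOX9 and ZNRF3 gave Pearson r = 0.70 (permutation adjusted p = 7.00e-05) and Spearman rho = 0.70 (permutation adjusted p = 5.60e-05), with r = 0.73 without the 2 farthest. Here 2.23% of genes were as close to SOX9 and 6.59% as close to ZNRF3. In each of these 4 pairs the correlation was above 0 on 8 of 8 slides, and with slide means removed r was 0.77, 0.68, 0.70 and 0.74 in the order given.

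The pair of stem cell markers LGR5 and ASCL2 did not show this. Their Pearson r = 0.28 (permutation adjusted p = 0.183) and Spearman rho = 0.06 (permutation adjusted p = 0.735) did not pass, and r was -0.05 once the 2 farthest arrays were left out, so the value rested on those. OLFM4 gave Pearson correlations between 0.01 and 0.37 with the 7 other genes, of which that with ASCL2 passed (adjusted p = 0.0276), although its rank correlation did not (adjusted p = 0.0712), and r fell to 0.23 without the 2 farthest arrays. SMOC2 correlated with ASCL2 at r = 0.29 (permutation adjusted p = 0.0340), with rho = 0.22 (permutation adjusted p = 0.179) and r = 0.24 without the 2 farthest.

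**Figure D4:**
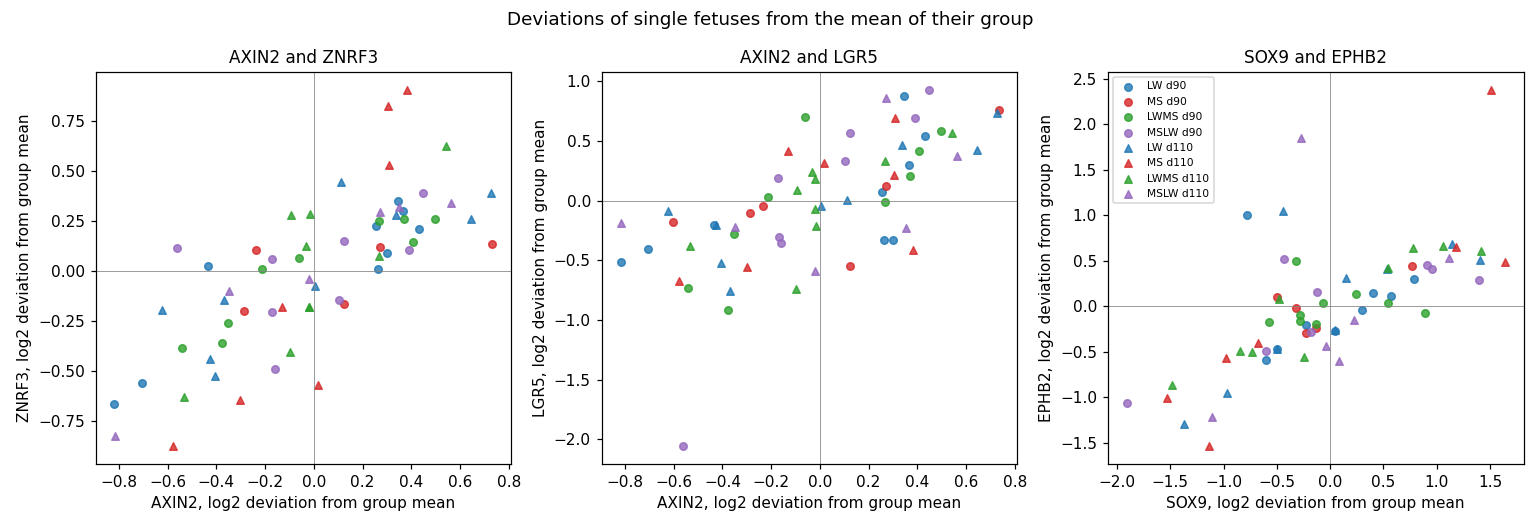
Deviation of each fetus from the mean of its group, in log2 units, for AXIN2 against ZNRF3 (left), AXIN2 against LGR5 (middle) and SOX9 against EPHB2 (right), using the brightest probe of each gene. Circles are day 90 and triangles day 110, coloured by genotype. The points rise together in all 3 panels (Pearson r = 0.76, 0.66 and 0.67), and MSLW fetus 450 is the low point of LGR5.

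Over the levels on all arrays, groups included, the named genes most like LGR5 by Pearson correlation were LRP4 (r = 0.71), BDNF (0.68) and SH2B3 (0.67). For ASCL2 they were TSPAN12 (r = 0.68), CCL2 (0.67) and EXOSC5 (0.66), for SMOC2 HAL (r = 0.68), IGF1 (0.68) and IGSF1 (0.65) and for SOX9 SLC7A2 (r = 0.84), ZNF608 (0.83) and ITPRIP (0.81). The closest to EPHB2 were PLCD3 (r = 0.88), MEIS3 (0.81) and PAQR7 (0.81) and to ZNRF3 probe A_72_P196082 VANGL1 (r = 0.92), DNER (0.90) and FASN (0.90). Of the probes outside the rule, AXIN2 was followed most closely by DDX39B (r = 0.88), MTSS1L (0.87) and LRRC4C (0.85) and OLFM4 by HIGD1B (r = 0.82), CD24 (0.81) and C15ORF48 (0.81). The number of genes with r above 0.5 differed between them, being 12.3% of the 8843 for ZNRF3 and 11.7% for AXIN2 but 2.27% for LGR5 and 0.780% for SMOC2.

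The rest of the Wnt pathway was described from lists of genes by role, each gene by its brightest tested probe and by the change with age averaged over the genotypes. The lists were chosen with earlier results of these data known, so their counts beside all probes are descriptive and not a test. Among ligands, 3 of 19 Wnt genes were tested, of which WNT7A rose by 0.62 ± 0.18 (SE, adjusted p = 0.00353) and was not called with normexp correction or array weights, and of 4 R-spondins 0 were tested. Of 12 tested of 17 receptors, 2 rose and 3 fell, against 12.8% of all probes higher and 15.7% lower, with a median of -0.02, equal to that of all probes. LGR4, the relative of LGR5 that also binds R-spondins, rose by 0.46 ± 0.09 (SE, adjusted p = 3.85e-05), and the Frizzled receptor FZD5 by 0.29 (adjusted p = 7.10e-04). FZD7 changed by -0.48 (adjusted p = 1.57e-04), FZD4 by -0.44 (adjusted p = 0.00468) and the receptor kinase ROR2 by -0.22 (adjusted p = 0.00557), all lower at day 110. Under median centring FZD5 and FZD4 were not called. The ROR2 call was made under 9 of 14 other settings and was lost with the deposited values, with normexp correction and with each other scaling tried.

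Among the listed inhibitors of Wnt signalling, secreted or acting by feedback, the called changes with age were toward lower levels. This list too was chosen with earlier results known, so its distance from all probes is not independent support. Of 17 genes 9 were tested, of which 6 fell and 0 rose, with a median of -0.57 against -0.02 over all probes (15.7% of all probes were lower). SFRP4, a secreted Frizzled-related protein that binds Wnt ligands, changed by -2.07 ± 0.13 (SE, adjusted p = 1.20e-19) and was called in all 4 genotypes. Its mean level was 0.61 in LW, 0.20 in MS, 0.41 in LWMS and 0.82 in MSLW at day 90, and -1.14, -1.46, -2.02 and -1.62 at day 110. DKK2, a ligand of the LRP co-receptors, changed by -1.24 ± 0.11 (SE, adjusted p = 2.59e-14) and was also called in all 4 genotypes. SOSTDC1, an inhibitor of Wnt and BMP signals, changed by -0.74 ± 0.11 (SE, adjusted p = 1.41e-07). DKK1 changed by -1.03 ± 0.32 (SE, adjusted p = 0.00816), with SDs of 1.36 to 2.01 at day 110, and was called under 3 of 14 other settings. Under median centring 3 of the 9 fell. The fibroblast markers moved the same way, 4 of 6 being lower at day 110. Their summed level averaged 7.39 in LW, 7.26 in MS, 7.37 in LWMS and 7.48 in MSLW at day 90. At day 110 the means were 7.03, 6.89, 6.76 and 6.67 in the same order. Single fetuses ranged from 6.71 to 7.92 at day 90 and from 5.98 to 8.26 at day 110, the highest being fetus 632. The part of the fibroblast markers in the values of the inhibitors was not tested.

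Of the beta-catenin complex and its nuclear partners, 16 of 22 genes were tested, of which 4 rose and 0 fell (12.8% and 15.7% of all probes), with a median of -0.04. The kinases GSK3A and GSK3B, which mark beta-catenin for degradation, rose by 0.39 (adjusted p = 0.00105) and 0.38 (adjusted p = 1.32e-05), the cytoplasmic transducer DVL2 by 0.30 (adjusted p = 0.00712) and the transcriptional co-repressor TLE4 by 0.82 (adjusted p = 8.84e-04). DVL2 was not called under median centring, without a filter on dim probes or without fetus 450, and TLE4 was not called with normexp correction, its lowest value under the other settings being 0.35. Of 27 other crypt and stem cell genes 19 were tested, of which 3 rose and 3 fell, near the 12.8% and 15.7% of all probes, with a median of -0.07. CD24, a surface glycoprotein of epithelial progenitors, rose by 1.07 ± 0.09 (SE, adjusted p = 5.23e-15) and was called in all 4 genotypes, and it was among the genes most like OLFM4. The adhesion molecules CD44 and ALCAM rose by 0.47 (adjusted p = 0.00217) and 0.32 (adjusted p = 2.32e-06). PHLDA1 changed by -0.50 (adjusted p = 9.58e-06), SOX4 by -0.39 (adjusted p = 0.00235) and the Polycomb gene BMI1 by -0.27 (adjusted p = 0.00322), all lower at day 110. SOX4 was not called under quantile normalization or median centring, nor BMI1 with the deposited values or median centring.

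Of 12 Notch and lineage genes 6 were tested, of which 2 fell and 0 rose (15.7% and 12.8% of all probes), with a median of -0.29. NOTCH1, the receptor through which neighbouring cells hold crypt progenitors undecided, changed by -0.82 ± 0.17 (SE, adjusted p = 1.11e-04), and HEY1, a transcriptional target of Notch, by -0.31 (adjusted p = 0.00141), which was not called under median centring. Among marker genes of the cells of the gut, to be read against 12.8% of all probes higher and 15.7% lower, 4 of 7 tested epithelial markers rose and 1 fell, 3 of 7 villus enterocyte markers rose and 1 fell, 3 of 4 goblet markers rose and 1 of 5 enteroendocrine markers rose. Of 7 tested proliferation markers 5 fell, as did 4 of 6 fibroblast, 1 of 6 smooth muscle and 3 of 6 neuron and glia markers, while 2 of 6 immune markers rose and 0 of 4 endothelial markers were called. The part of these markers in the values of the crypt genes was not tested.

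**Figure D5:**
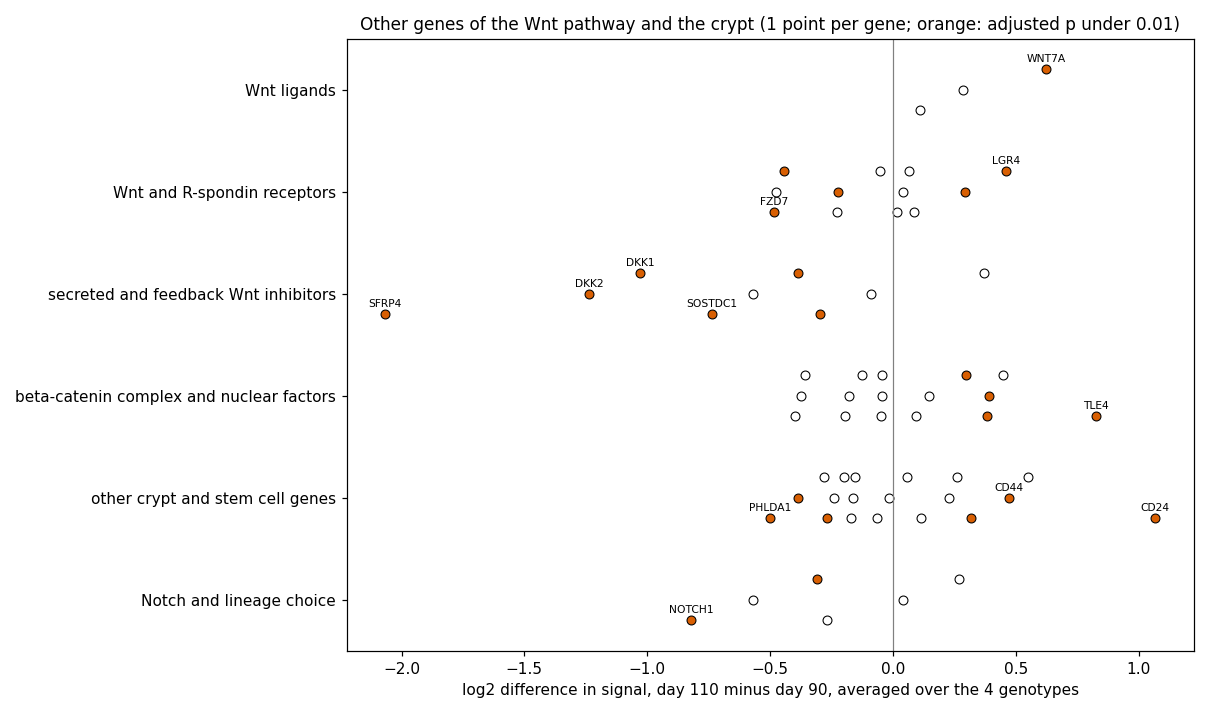
Log2 difference in signal between day 110 and day 90, averaged over the 4 genotypes, for the tested genes of each list (1 point per gene). Orange points have an adjusted p under 0.01, and the called genes beyond 0.45 in size are named. The inhibitors SFRP4 (-2.07), DKK2 (-1.24) and DKK1 (-1.03) lie farthest to the left, followed by NOTCH1 (-0.82) and SOSTDC1 (-0.74), and CD24 (1.07) lies farthest to the right.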

How the data were processed

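Jejunum RNA of 63 fetuses was hybridised to 1-colour Agilent arrays. The authors extracted spot intensity with Agilent Feature Extraction 10.10.1.1, and the intensity values were deposited per array. The table of processed values that the authors deposited is on a log2 scale, with equal column medians, and was used as an alternative.

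Control and outlier spots were left out, spots of a probe were averaged, and the log2 processed signal was centred on the 75th percentile of each array. Testing required a probe to exceed background clearly on 75% or more of the arrays in some group, which kept 40515 of 60305 probes, 2775 of them with a missing value. The 8 groups of genotype and day, taken from the labels, were fitted in R 4.3.3 with limma 3.58.1, and two-sided p-values were adjusted over all tested probes by the Benjamini-Hochberg method. The F test and the averaged age change were called at an adjusted p under 0.01, age changes within a genotype and MS against LW at 0.01 with a log2 difference of at least 0.5, and parental effects and interactions at 0.05. The sow, a random effect in the study, is not in the labels used here and was not modelled. Depth has no counterpart on arrays, where the number of arrays limits precision.

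All probes of the members were named. Of each list, up to 4 called genes per direction with the largest averaged age change were named, and for each member the 3 most correlated genes. The members and lists were chosen with earlier results of these data known. Alternatives covered background correction, scaling, the filter on dim probes, slide, array weights, left-out fetuses and an unmoderated linear model. A covariate for the share of probes above background, leaving out each fetus in turn, and lists without fetus 632 or 450 were added after seeing the data. The fit was tested on simulated data.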

Additional observations from a re-analysis of the deposited data

Results flagged for a closer look

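In 7 of 96 groups of probe values, 1 fetus stood apart from the others of its group by Dixon's ratio, the gap to the nearest fetus divided by the range of the group. Chance gives about 1 in 20 such groups. In MSLW at day 90, fetus 450 was the lowest value of LGR5 A_72_P201052, at -3.59 with the next at -1.89 (ratio 0.570), and of ASCL2 O1031, at -1.80 with the next at -0.43 (ratio 0.550). In LW at day 90, fetus 484 was the highest value of both ASCL2 probes, at 2.19 against 1.40 for A_72_P441878 (ratio 0.572) and at 1.64 against 0.67 for O1031 (ratio 0.563), and of ZNRF3 A_72_P488530, at -0.65 against -1.41 (ratio 0.552). In MSLW at day 110, fetus 851 was the highest value of ZNRF3 A_72_P488530, at -0.28 with the next at -1.67 (ratio 0.771). In LWMS at day 90, fetus 823 was the highest value of EPHB2 O7334, at -1.64 with the next at -2.01 (ratio 0.529).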

How the results depend on the processing

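No paired analysis was possible because each fetus number occurs once and the groups share no replicate numbers. Of the alternative counts of the 9 probes called, 166 stayed within 1.5 times the count reported and 22 did not. Most reported counts were 0, and a 0 that stayed 0 is among the 166, so this is a weak measure of stability. Of the single differences 441 were graded the same, 7 weaker, 6 stronger and 13 moved, and none turned its direction. For the F test, 1 of the 9 was called with the slide as a block, 5 with array weights and 0 to 1 when leaving out each fetus in turn. For the averaged age change, against 1 reported, 2 were called with the deposited values, 2 with normexp correction, 2 with array weights, 0 with the 75th percentile over probes well above background on all arrays, and 1 to 2 when leaving out each fetus, where the second call was SOX9 O11452. With array weights, 1 was called for the age change in LW, 1 in MS and 1 in LWMS, and for MS against LW 1 at day 90 and 2 at day 110. The day 110 comparison gave 1 with the covariate and 0 to 1 when leaving out each fetus, LGR5 being called without MSLW fetus 450 or LW fetus 670. For the sow, 0 were called under median centring, 3 with array weights and 1 to 2 when leaving out each fetus, the 2 being without MS fetus 632. For the sire, 2 were called with the deposited values, 0 under quantile normalization, 4 with array weights and 1 to 2 when leaving out each fetus, the 2 being without MSLW fetus 851. The AXIN2 call in MSLW was lost under median centring (-0.96, adjusted p = 0.0181) and with the 75th percentile over probes well above background on all arrays (-0.90, adjusted p = 0.0168). The cause of these shifts was not tested. The signal of the dim probes, SOX9 A_72_P146931 and OLFM4 at day 90, lay near background, which limits their precision.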
